A study of Mus musculus with 6 samples.

Results

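Interferon signalling and response genes were measured in immortalized murine podocytes, the epithelial cells that cover the kidney filter. The group holds 57 of the 57132 genes in the count table. Its members were chosen from a list of known interferon receptors, signal mediators and induced genes, matched to the table by their GENCODE M21 symbol, and all 57 were found. Of these, 52 held enough reads to be tested. RNA-seq was available for 3 samples of the wildtype line (IMWT, genotype WT-Col4a3+/+, here WT) and 3 samples of the Alport Syndrome line (IMAS, genotype AS - Col4a3-/-, here AS), with no treatment in either. Per the labels both lines came from adult male mice of 8 weeks, were kept at 33 °C in medium with 20 U/mL interferon gamma, and were differentiated for 14 days at 37 °C. The study's methods give a lower interferon dose and fewer days, and state that interferon gamma was left out at 37 °C. All samples carry the H-2Kb-tsA58 transgene, a temperature-sensitive T antigen under an H-2Kb promoter that interferon gamma turns on, so that WT and AS podocytes alike had been exposed to interferon before differentiation. Each genotype is 1 cell line, and genotype and line cannot be told apart. Whether the 3 samples of a line are separate cultures is not given, so p-values measure the spread between these samples, which may be technical.

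Type I interferons bind Ifnar1 with Ifnar2, and interferon gamma, the type II interferon, binds Ifngr1 with Ifngr2. The kinases Jak1, Jak2 and Tyk2 then phosphorylate Stat proteins. Stat2 and Irf9 take part in the complex that binds the interferon-stimulated response element (ISRE), whereas the response to interferon gamma runs through the gamma-activated site (GAS). Induced genes include antiviral proteins (IFIT, OAS and Mx families, Isg15), the guanylate-binding and immunity-related GTPases that act against intracellular pathogens, and inhibitors such as Socs1 and Usp18 that end the response. Podocytes are not immune cells but express the receptors and respond to both kinds of interferon.

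Values are given as CPM, counts-per-million after TMM scaling of the libraries. A gene was called when its adjusted p was under 0.05 in the edgeR quasi-likelihood comparison of AS with WT (two-sided, adjusted by Benjamini-Hochberg over all 16263 genes tested), and fold changes are AS over WT. Means are given ± SD over the 3 samples of a line. The libraries held 45417221 to 54290968 reads on genes. Mitochondrial reads were 0.882 to 1.68% of these in the WT and 1.30 to 2.02% in the AS samples. Col4a3, which the labels give as -/- in the AS line, was lower in every AS sample than in any WT sample (log2 fold change -3.98). It was at 938, 1052 and 1272 CPM in the WT samples and still at 62.4, 61.2 and 82.9 CPM in the AS samples. Of 10 podocyte markers, 1 had no count in any library and 8 were tested. Of those tested, 87.5% were called, against 40.1% of all genes. In AS podocytes 2 were higher (among them Lmx1b, log2 fold change 3.40, adjusted p = 3.73e-06) and 5 lower. Among them, Nphs1 (nephrin) summed to 67 counts in WT and 6 in AS podocytes, and Wt1 was lower in AS podocytes (log2 fold change -3.04, adjusted p = 3.57e-05), while Synpo (synaptopodin) stood at 803 ± 44.2 CPM in WT podocytes and 526 ± 30.8 CPM in AS podocytes. Of 15 leukocyte markers, 4 had no count in any library, the pan-leukocyte gene Ptprc summed to 35 counts in WT and 22 in AS podocytes, and the summed level was 11.8 to 16.0 CPM in the WT and 5.76 to 7.57 CPM in the AS samples, most of it Csf1r and Cd68. Summed levels of the other marker lists were 45.8 to 54.2 CPM in the WT and 38.9 to 44.2 CPM in the AS samples for 9 endothelial genes (Cdh5 and Pecam1 near 0), 6219 to 8417 CPM in the WT and 6555 to 7689 CPM in the AS samples for 8 mesangial and smooth muscle genes, which is nearly all Acta2, 323 to 383 CPM in the WT and 378 to 527 CPM in the AS samples for 8 tubule genes and 803 to 856 CPM in the WT and 569 to 609 CPM in the AS samples for 5 parietal epithelial genes. Fewer cells of a type and less RNA per cell cannot be told apart in such samples.

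AS podocytes did not show a uniform rise or fall of interferon genes. Of the 52 members tested, 16 were higher and 10 lower in AS podocytes, so that 50.0% were called, against 40.1% of all genes tested (20.4% higher and 19.6% lower). The median log2 fold change of the members was -0.06, beside 0.01 over all genes, and the levels of the 2 lines did not overlap in 32 members, where the share over all genes was 52.3%. Among members with a mean of at least 1 CPM, 48.9% of 47 were called, beside 46.1% of all 12912 genes at that level. A fold change over 2 was reached by 3 members, each lower in AS podocytes (Cmpk2, Oas1a and Rsad2), whereas 11.2% of all genes passed that limit (4.59% higher and 6.59% lower). By role, 4 of 6 transcription factors and 4 of 4 IFIT genes were higher, 2 of 3 guanylate-binding proteins were lower, and no inhibitor was called.

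**Figure D1:**
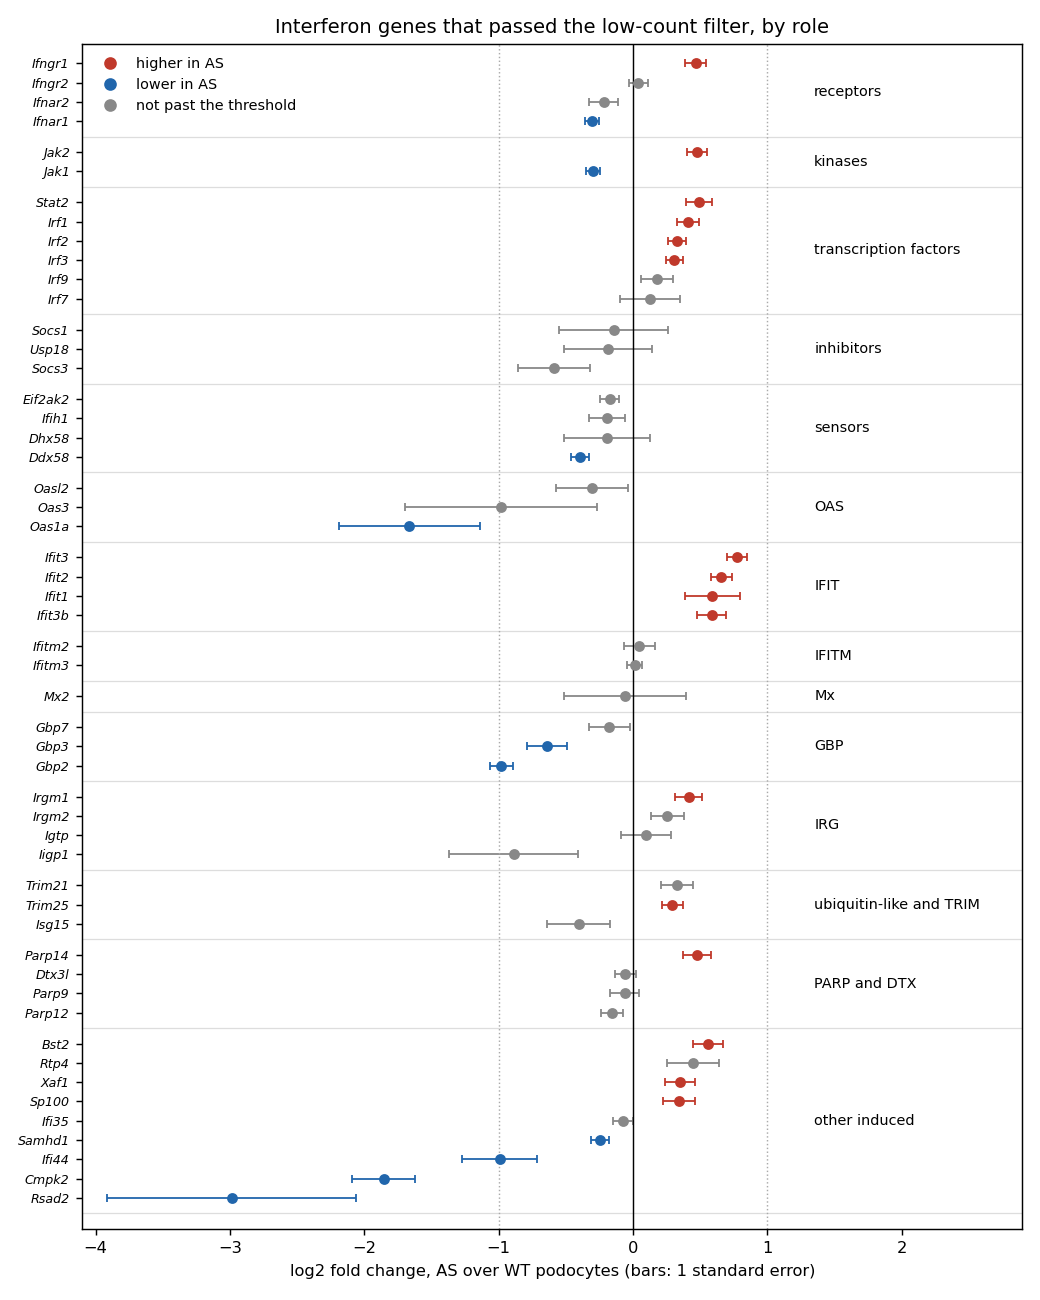
Log2 fold change (AS over WT podocytes, horizontal axis) of the 52 interferon genes tested, grouped by role on the vertical axis, with 1 standard error as the bar, and red, blue and grey for higher, lower and not called. IFIT genes lie right of 0, Gbp2, Gbp3, Cmpk2 and Rsad2 lie left of it, and no gene called higher reaches the dotted line at a log2 fold change of 1.

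Ifngr1 rose and Ifnar1 fell in AS podocytes, while their partner chains were not called. Ifngr1 (ENSMUSG00000020009.14, chromosome 10), the chain that binds interferon gamma, was at 68.0, 77.2 and 82.8 CPM in the WT samples and 106, 109 and 99.4 CPM in the AS samples, so that every AS sample lay above every WT sample (log2 fold change 0.47, standard error 0.08, adjusted p = 0.00113). Its partner Ifngr2 (chromosome 16) was at 171, 194 and 205 CPM in the WT samples and 192, 199 and 196 CPM in the AS samples, with overlapping lines (log2 fold change 0.04, adjusted p = 0.694). On the type I side, Ifnar1 (ENSMUSG00000022967.14, chromosome 16) stood at 163, 153 and 159 CPM in the WT samples and 128, 126 and 129 CPM in the AS samples and fell in AS podocytes (log2 fold change -0.31, standard error 0.05, adjusted p = 0.00127). Ifnar2 was at 9.13, 9.34 and 9.52 CPM in the WT samples and 7.33, 8.58 and 8.16 CPM in the AS samples; the AS samples lay below the WT samples without passing the threshold (log2 fold change -0.22, adjusted p = 0.140). Ifngr1 stayed higher and Ifnar1 lower, both past the threshold, whichever of the 6 samples was left out.

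The kinases bound to these receptors also differed in direction. Jak1 (ENSMUSG00000028530.15, chromosome 4), which serves the receptors of both interferon types, was at 202, 202 and 198 CPM in the WT samples and 168, 157 and 164 CPM in the AS samples, below WT in every AS sample (log2 fold change -0.30, standard error 0.05, adjusted p = 0.00165). Jak2 (ENSMUSG00000024789.14, chromosome 19), which serves the interferon gamma receptor, was at 51.1, 60.8 and 59.2 CPM in the WT samples and 78.5, 76.5 and 82.8 CPM in the AS samples and rose (log2 fold change 0.47, standard error 0.07, adjusted p = 0.000858). Thus Ifngr1 and Jak2 were 1.38 and 1.39 times their WT level in AS podocytes, and Ifnar1 and Jak1 0.808 and 0.812 times.

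Among the 6 members that act as transcription factors, 4 were higher in AS podocytes and none was lower. Stat2 (ENSMUSG00000040033.18, chromosome 10), the Stat protein of the type I pathway, was at 24.6, 27.9 and 30.0 CPM in the WT samples and 35.0, 38.2 and 43.0 CPM in the AS samples (log2 fold change 0.49, standard error 0.10, adjusted p = 0.00307). Irf1 (chromosome 11), which interferon gamma induces, was at 18.3, 16.9 and 19.0 CPM in the WT samples and 22.3, 24.8 and 24.9 CPM in the AS samples (log2 fold change 0.41, standard error 0.08, adjusted p = 0.00300). For Irf2 (chromosome 8), an antagonist of Irf1 at many promoters, the levels were 33.4, 36.1 and 31.8 CPM in the WT samples and 41.1, 42.5 and 43.6 CPM in the AS samples (log2 fold change 0.33, standard error 0.07, adjusted p = 0.00391). In these genes the highest WT sample lay below the lowest AS sample. Irf3 (chromosome 7), which is activated after sensing of viral nucleic acid, was at 34.2, 33.9 and 36.0 CPM in the WT samples and 40.8, 44.2 and 43.8 CPM in the AS samples and also rose without overlap (log2 fold change 0.31, standard error 0.06, adjusted p = 0.00385). Irf7, the amplifier of the type I response, had 3.23, 2.73 and 1.95 CPM in the WT samples and 3.44, 2.68 and 2.56 CPM in the AS samples (log2 fold change 0.13, adjusted p = 0.686), and Irf9, the DNA-binding partner of Stat2, had 16.1, 12.3 and 15.5 CPM in the WT samples and 15.6, 15.8 and 18.4 CPM in the AS samples (log2 fold change 0.18, adjusted p = 0.258); in these the lines overlapped. Stat3, which is not a member, was lower in AS podocytes (log2 fold change -0.49, adjusted p = 0.00952).

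The position of some of these genes has to be kept beside their values. The median log2 fold change, taken over expressed genes (mean log2 CPM above 2), was 0.32 on chromosome 10, 0.32 on chromosome 8, 0.19 on chromosome 19 and -0.16 on chromosome 4. Relative to the median of its own chromosome, Irf2 was at 0.00396, Ifngr1 at 0.14, Stat2 at 0.17, Jak2 at 0.28 and Jak1 at -0.14 on the log2 scale. Irf1 and Irf3, on chromosomes with medians of -0.03 and -0.01, kept 0.44 and 0.32. The part of such chromosome-wide shifts in the levels of single genes was not tested.

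**Figure D2:**
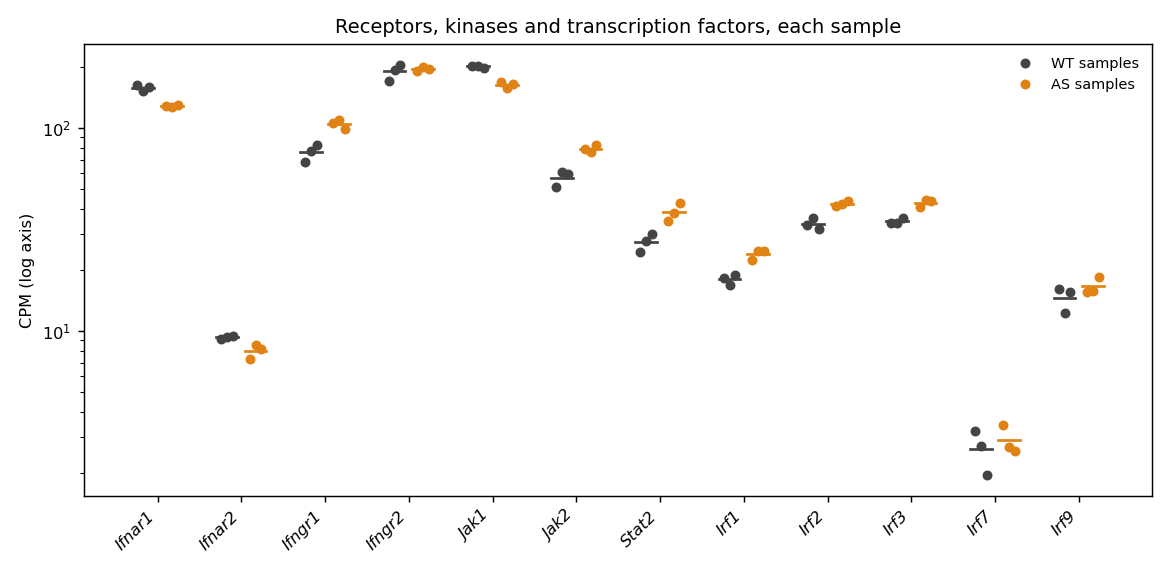
CPM on a log axis of the receptors, kinases and transcription factors in each of the 3 WT (grey) and 3 AS (orange) samples, with the mean as a short line. Ifngr1, Jak2, Stat2, Irf1, Irf2 and Irf3 have all AS points above the WT points, Ifnar1, Ifnar2 and Jak1 have them below, and Ifngr2, Irf7 and Irf9 overlap.

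No inhibitor passed the threshold in the main comparison, and their levels varied between the samples of a line. Socs1, which blocks Jak kinases and is itself induced by interferon gamma, was at 10.4, 3.46 and 4.57 CPM in the WT samples and 8.33, 4.32 and 4.12 CPM in the AS samples (log2 fold change -0.14, standard error 0.40, adjusted p = 0.805). Socs3, induced mainly through Stat3, was at 31.3, 14.7 and 19.8 CPM in the WT samples and 19.4, 12.1 and 12.4 CPM in the AS samples (log2 fold change -0.59, standard error 0.27, adjusted p = 0.110). Usp18, which removes Isg15 from proteins and blocks Ifnar2, was at 1.60, 1.24 and 1.17 CPM in the WT samples and 1.78, 0.973 and 0.799 CPM in the AS samples (log2 fold change -0.19, standard error 0.33, adjusted p = 0.687). In each of these genes, and in Irf7, replicate 1 was the highest sample of its line, in WT and in AS podocytes alike. Besides the replicate block given with the other settings, the Socs3 difference passed the threshold without WT replicate 2 (adjusted p = 0.0290), without AS replicate 1 (adjusted p = 0.0425) and with no filter on low counts (adjusted p = 0.000252), in edgeR. For Socs1 the log2 fold change was 0.47 without WT replicate 1.

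All 4 IFIT genes rose in AS podocytes. They encode proteins with tetratricopeptide repeats that bind foreign RNA and restrain its translation, and they lie in a cluster on chromosome 19. Ifit3 (ENSMUSG00000074896.4) was at 34.3, 40.2 and 36.6 CPM in the WT samples and 64.6, 66.4 and 59.0 CPM in the AS samples, the largest increase of any member tested (log2 fold change 0.77, standard error 0.08, adjusted p = 5.34e-05). Ifit2 (ENSMUSG00000045932.13) was at 26.4, 30.4 and 27.3 CPM in the WT samples and 47.2, 41.3 and 44.2 CPM in the AS samples (log2 fold change 0.66, standard error 0.08, adjusted p = 0.000176), and Ifit3b at 12.5, 13.0 and 10.2 CPM in the WT samples and 18.5, 16.8 and 18.2 CPM in the AS samples (log2 fold change 0.59, standard error 0.11, adjusted p = 0.00209). In these 3 genes the lowest AS sample exceeded the highest WT sample. Ifit1 was the weakest, at 2.15, 1.54 and 1.63 CPM in the WT samples and 2.91, 2.35 and 2.76 CPM in the AS samples (log2 fold change 0.59, standard error 0.20, adjusted p = 0.0438); its direction stayed, but leaving out any sample other than WT replicate 1 cost it the threshold, with an adjusted p between 0.0543 and 0.137 in edgeR. Together the 4 genes held 75.3, 85.1 and 75.7 CPM in the WT and 133, 127 and 124 CPM in the AS samples, a ratio of 1.63.

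Reads of Ifit3 and Ifit3b cannot be fully separated, since 41.1% of the stretches of 75 bases in the Ifit3 transcripts of M21 occur unchanged in Ifit3b. Their sum does not depend on how reads were divided between them, and was 46.8, 53.2 and 46.8 CPM in the WT and 83.2, 83.2 and 77.2 CPM in the AS samples, 1.66 times higher in AS podocytes on average. Relative to the median of chromosome 19 (0.19), Ifit3, Ifit2 and Ifit3b stood at 0.58, 0.47 and 0.40 on the log2 scale. Genes beside them did not all rise. Ifit1bl1 and Ifit1bl2, which lie between the members, had log2 fold changes of -0.25 and 0.11 (adjusted p = 0.485 and 0.823). The 5 tested genes on each side ran from -1.85 to 1.57, of which 5 were higher, 2 lower and 3 not called. Over all genes tested, 20.4% were higher and 19.6% lower.

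Promoter sequence is shown for the 2 members with the largest increase (Ifit3 and Ifit2) and the 2 with the largest decrease (Cmpk2 and Ifi44) among called members with a mean of at least 1 CPM and no overlap between lines, and for Ifit3b and Gbp2, added once the motif matches were seen, because they carry an ISRE and moved in opposite directions. Each is the 250 bases before the transcript start in RefSeq (GRCm38.p6), read 5′ to 3′ on the strand of the gene. Capitals mark the ISRE letters (GAAA, any 2 bases, GAAA, or on the other strand TTTC, any 2 bases, TTTC), and in Ifit2 the GAS letters TTCNNNGAA, which read the same on both strands.
Ifit3, higher in AS, chr19:34583279-34583528, plus strand: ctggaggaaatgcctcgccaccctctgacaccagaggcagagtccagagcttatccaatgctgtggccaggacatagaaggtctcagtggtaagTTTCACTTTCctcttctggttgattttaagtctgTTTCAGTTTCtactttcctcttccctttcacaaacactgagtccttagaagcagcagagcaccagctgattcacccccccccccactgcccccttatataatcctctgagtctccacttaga
Ifit3b, higher in AS, chr19:34607707-34607956, plus strand: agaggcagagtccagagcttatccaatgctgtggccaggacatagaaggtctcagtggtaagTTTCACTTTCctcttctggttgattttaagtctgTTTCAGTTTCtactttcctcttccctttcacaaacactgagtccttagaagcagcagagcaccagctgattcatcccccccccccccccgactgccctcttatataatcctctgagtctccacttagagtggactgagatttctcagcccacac
Ifit2, higher in AS, chr19:34550444-34550693, plus strand: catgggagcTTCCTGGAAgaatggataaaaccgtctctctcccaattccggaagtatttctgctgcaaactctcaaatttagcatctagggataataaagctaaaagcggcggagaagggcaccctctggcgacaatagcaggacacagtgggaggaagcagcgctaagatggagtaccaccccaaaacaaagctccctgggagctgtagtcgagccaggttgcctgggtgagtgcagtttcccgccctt
Gbp2, lower in AS, chr3:142620413-142620662, plus strand: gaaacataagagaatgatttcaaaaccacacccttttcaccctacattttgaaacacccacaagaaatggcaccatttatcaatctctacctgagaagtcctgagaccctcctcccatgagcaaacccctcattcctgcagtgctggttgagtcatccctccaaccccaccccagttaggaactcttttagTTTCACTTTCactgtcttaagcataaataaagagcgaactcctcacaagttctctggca
Cmpk2, lower in AS, chr12:26468965-26469214, plus strand: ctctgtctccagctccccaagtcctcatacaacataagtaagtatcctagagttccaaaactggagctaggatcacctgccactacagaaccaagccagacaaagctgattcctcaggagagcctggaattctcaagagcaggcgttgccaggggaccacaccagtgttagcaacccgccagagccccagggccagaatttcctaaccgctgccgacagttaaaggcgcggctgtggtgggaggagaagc
Ifi44, lower in AS, chr3:151749911-151750160, minus strand: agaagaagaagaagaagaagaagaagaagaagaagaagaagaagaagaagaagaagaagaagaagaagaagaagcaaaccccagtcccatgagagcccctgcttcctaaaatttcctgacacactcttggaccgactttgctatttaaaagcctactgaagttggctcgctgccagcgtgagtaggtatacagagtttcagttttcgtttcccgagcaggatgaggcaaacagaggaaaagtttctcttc
Ifit3 and Ifit3b each hold a pair of ISRE matches, Gbp2 holds 1, and the windows of Cmpk2 and Ifi44 hold neither motif, which says only that these letters do not occur there. Another start of Ifit2 in the same table has neither motif in its 250 bases.

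Over the members as a whole, ISRE matches were found among genes that were higher, lower and not called. A window was given for 47 of the 57 members, and 18 of these (38.3%) held an ISRE on either strand, beside 3.46% of the 27025 genes in the table with windows of that length. GAS letters were present in 12 (25.5%), beside 8.13%. An ISRE was found in 7 of 15 members that were higher, 4 of 10 that were lower and 7 of 20 that were not called. The corresponding counts for GAS were 4, 2 and 6. A match is a run of letters and not a measured binding site, and the members were listed as interferon genes, for which such motifs are known. Matches that lie a few bases apart share bases. Zbp1, Rtp4, Mx1, Iigp1, Parp14, Usp18, Parp9, Oas2, Mx2 and Dhx58 were not searched.

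**Figure D3:**
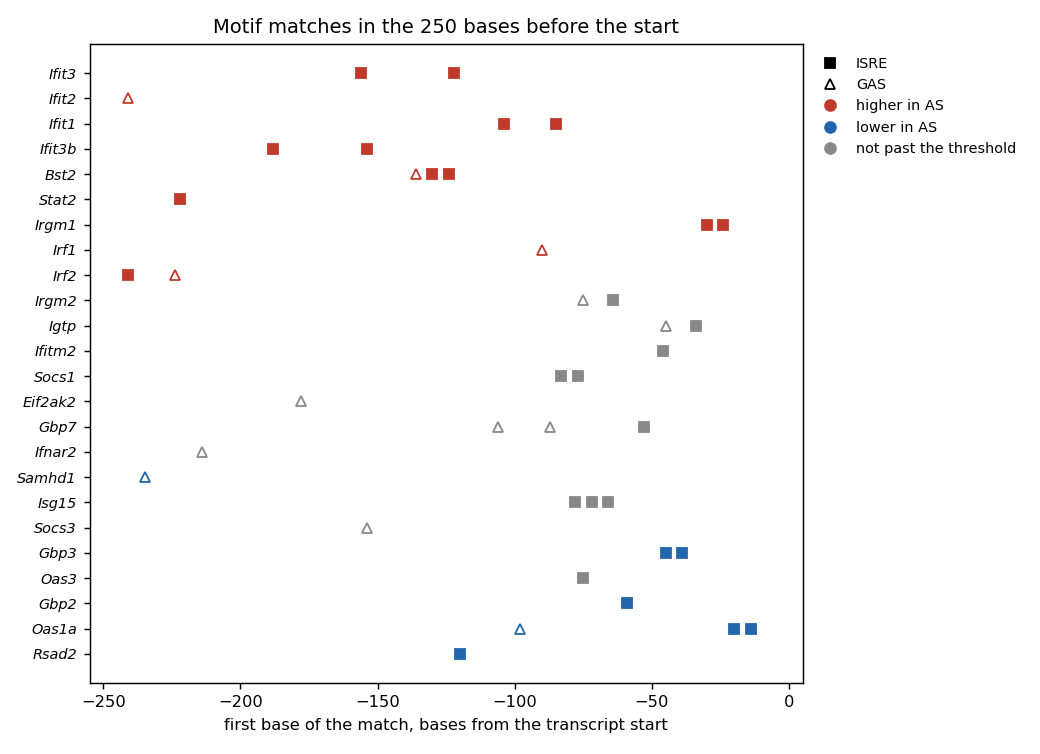
Distance from the transcript start (horizontal axis, bases) of each ISRE (square) and GAS (triangle) match in the 250 bases before the start, for the members with a match, ordered by log2 fold change from the largest increase at the top. Red (higher), blue (lower) and grey (not called) genes all carry ISRE matches.

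Of the 3 guanylate-binding proteins, all on chromosome 3, Gbp2 and Gbp3 fell in AS podocytes and Gbp7 was not called. They are large GTPases, induced strongly by interferon gamma, that assemble on vacuoles holding pathogens. Gbp2 (ENSMUSG00000028270.13) was at 68.5, 62.3 and 55.9 CPM in the WT samples and 31.3, 29.7 and 33.7 CPM in the AS samples, a mean in AS podocytes of 0.507 times that in WT (log2 fold change -0.98, standard error 0.08, adjusted p = 2.39e-05), the smallest adjusted p of any member. Gbp3 (ENSMUSG00000028268.15) was at 10.7, 11.1 and 8.02 CPM in the WT samples and 6.66, 6.83 and 5.67 CPM in the AS samples (log2 fold change -0.64, standard error 0.15, adjusted p = 0.00761). Every AS sample of these genes lay under the WT samples. Gbp7, in the same cluster, was at 7.61, 6.32 and 7.85 CPM in the WT samples and 7.06, 5.23 and 6.996 CPM in the AS samples and overlapped (log2 fold change -0.18, adjusted p = 0.401); 10.0% of its stretches of 75 bases are shared with a processed pseudogene. Gbp2b, a tested gene between Gbp3 and Gbp2 that is not a member, had a log2 fold change of -1.05. The 5 tested genes on each side of the cluster ran from -1.62 to 1.44 on the log2 scale, with 2 higher, 5 lower and 3 not called. Over all genes tested, 20.4% were higher and 19.6% lower.

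Of the 4 immunity-related GTPases, 1 rose and none fell. Irgm1 (ENSMUSG00000046879.8, chromosome 11), a regulator of the other GTPases and of autophagy, was the most abundant of them at 333, 251 and 267 CPM in the WT samples and 395, 377 and 363 CPM in the AS samples, and it rose (log2 fold change 0.41, standard error 0.10, adjusted p = 0.00849). Irgm2 was at 7.08, 6.54 and 6.65 CPM in the WT samples and 8.19, 7.10 and 8.94 CPM in the AS samples, without overlap but short of the threshold (log2 fold change 0.26, adjusted p = 0.131). Igtp (also Irgm3) was at 5.76, 3.76 and 5.59 CPM in the WT samples and 5.44, 4.65 and 6.07 CPM in the AS samples (log2 fold change 0.10, adjusted p = 0.721). Iigp1, an effector that is barely expressed here, was at 0.533, 0.833 and 1.08 CPM in the WT samples and 0.755, 0.214 and 0.363 CPM in the AS samples (log2 fold change -0.89, adjusted p = 0.176), and it passed only without AS replicate 1 (log2 fold change -1.49, adjusted p = 0.0427, edgeR). Thus of the members that are GTPases known for induction by interferon gamma, 1 rose, 2 fell and 4 were not called, where 40.1% of all genes tested were called. Igtp and Irgm2 share exon bases in M21, 7.80% of the stretches of Igtp.

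**Figure D4:**
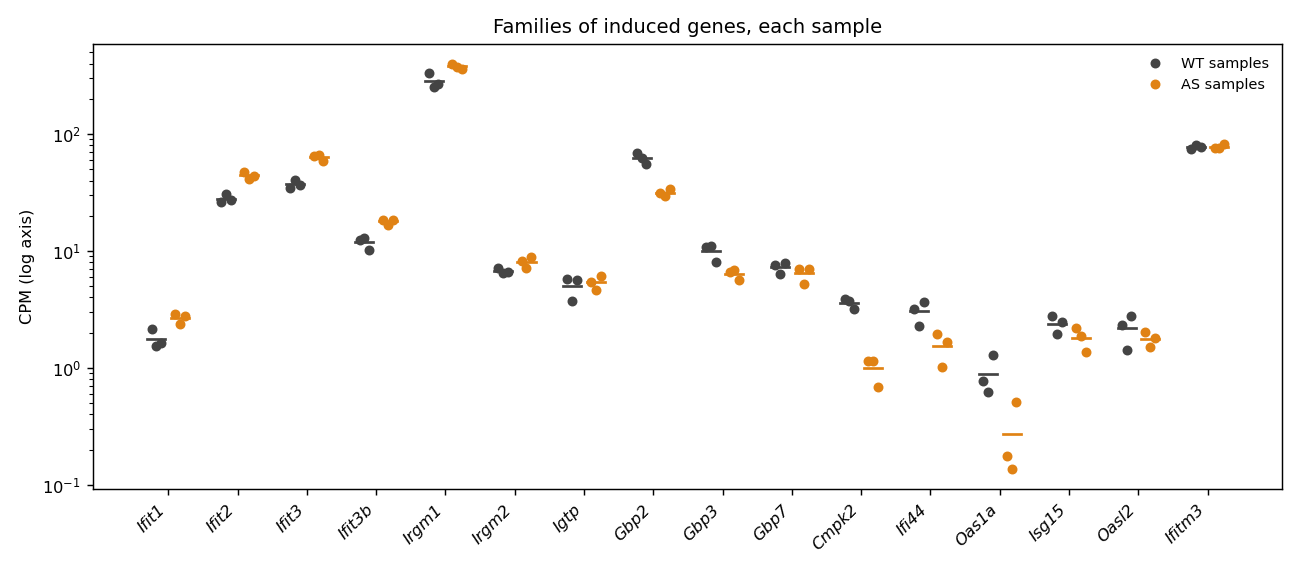
CPM on a log axis of members of the induced families in each of the 3 WT (grey) and 3 AS (orange) samples, with the mean as a short line. AS points lie above WT points in the 4 IFIT genes, Irgm1 and Irgm2, below them in Gbp2, Gbp3, Cmpk2, Ifi44 and Oas1a, and among them in Igtp, Gbp7, Isg15, Oasl2 and Ifitm3.

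Cmpk2 and Rsad2 fell together. They are neighbours on chromosome 12 on opposite strands: Rsad2 encodes viperin, which makes a chain-terminating nucleotide from CTP, and Cmpk2 is a nucleotide kinase that can supply CTP to it. Cmpk2 (ENSMUSG00000020638.9) was at 3.85, 3.76 and 3.19 CPM in the WT samples and 1.15, 1.15 and 0.690 CPM in the AS samples (log2 fold change -1.86, standard error 0.24, adjusted p = 0.000255), with a mean in AS podocytes of 0.276 times that in WT. Rsad2 was near the limit of detection, with 18, 27 and 10 counts in the WT samples and 0, 7 and 0 counts in the AS samples (log2 fold change -2.99, standard error 0.93, adjusted p = 0.0284), and the threshold was lost without WT replicate 2 (adjusted p = 0.102), AS replicate 1 (adjusted p = 0.0785) or AS replicate 3 (adjusted p = 0.0912) in edgeR. Without each of these in turn its log2 fold change was -2.58, -2.49 and -2.38, and limma-voom gave -3.90. Without AS replicate 2 no AS count was left, and the fitted value of -7.23 (adjusted p = 0.00582, edgeR) then depends on the prior count and is no bound. The levels of the pair did not overlap between lines in either gene. Among the 5 tested genes on each side of the pair, 4 were higher, 1 was lower and 5 were not called. Over all genes tested, 20.4% were higher and 19.6% lower.

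OAS genes, most of whose products make 2′-5′ oligoadenylate that activates RNase L on sensing double-stranded RNA, were expressed at low levels. Oas1a was at 0.769, 0.620 and 1.28 CPM in the WT samples and 0.178, 0.136 and 0.509 CPM in the AS samples (log2 fold change -1.66, standard error 0.52, adjusted p = 0.0303). All AS samples lay below the WT samples, but the adjusted p was 0.120 without WT replicate 3, 0.0888 without AS replicate 1 and 0.0898 without AS replicate 2 (edgeR), and the log2 fold change was -2.49 without AS replicate 3. Of its stretches of 75 bases, 47.6% occur in Oas1g. Oas3 was at 0.178, 0.299 and 0.737 CPM in the WT samples and 0.3996, 0.0584 and 0.164 CPM in the AS samples (log2 fold change -0.98, adjusted p = 0.310) and Oasl2, an OAS-like gene, at 2.33, 1.43 and 2.80 CPM in the WT samples and 2.02, 1.50 and 1.80 CPM in the AS samples (log2 fold change -0.30, adjusted p = 0.402), both with overlap. Too few reads fell on Oas2 and Oasl1 to test them. Between Oas3 and Oas1a on chromosome 5, the tested genes Oas1e, Oas1c and Oas1b, which are not members, had log2 fold changes of 0.28, 0.54 and -0.09. The 5 tested genes on each side ran from -5.39 to 0.73, with 2 higher, 3 lower and 5 not called. Over all genes tested, 20.4% were higher and 19.6% lower.

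Among the sensors of nucleic acid, Ddx58 was lower in AS podocytes. Ddx58 (ENSMUSG00000040296.16, chromosome 4) encodes RIG-I, which recognises viral RNA ends, and was at 65.5, 56.9 and 65.6 CPM in the WT samples and 47.3, 47.3 and 48.4 CPM in the AS samples (log2 fold change -0.39, standard error 0.07, adjusted p = 0.00151). Its relatives Ifih1 (MDA5) and Dhx58 (LGP2) were not called, with 5.23 ± 0.210 CPM in WT podocytes and 4.57 ± 0.339 CPM in AS podocytes for Ifih1 (log2 fold change -0.19, adjusted p = 0.274) and 1.27 ± 0.533 CPM in WT podocytes and 1.10 ± 0.111 CPM in AS podocytes for Dhx58 (log2 fold change -0.19, adjusted p = 0.671). All AS samples of Ifih1 lay below its WT samples, and the lines overlapped in Dhx58. Eif2ak2, the kinase PKR that halts translation on double-stranded RNA, was at 69.0, 63.6 and 74.9 CPM in the WT samples and 62.5, 58.3 and 63.4 CPM in the AS samples; the AS samples lay below the WT samples (log2 fold change -0.17, adjusted p = 0.0821), and the threshold was passed without WT replicate 2 (adjusted p = 0.0372, edgeR) and with that block. Zbp1, a sensor of Z-form nucleic acid, had too few reads for a test.

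The remaining induced members moved by less than a fold change of 2. Bst2 (tetherin, chromosome 8), which holds budding virus at the cell surface, was at 12.5, 11.6 and 15.2 CPM in the WT samples and 21.002, 18.6 and 18.4 CPM in the AS samples and rose (log2 fold change 0.56, standard error 0.11, adjusted p = 0.00372), and stood at 0.24 relative to its chromosome. Parp14, an ADP-ribosyltransferase, was at 11.5, 11.6 and 14.1 CPM in the WT samples and 17.1, 16.1 and 18.5 CPM in the AS samples (log2 fold change 0.47, standard error 0.11, adjusted p = 0.00590). Its neighbours Parp9 and Dtx3l, which work as a complex and share 6.63% of the stretches of Parp9, were not called (log2 fold change -0.06, adjusted p = 0.687 and log2 fold change -0.06, adjusted p = 0.628), nor was Parp12 (log2 fold change -0.16, adjusted p = 0.156). Only Parp14 of this group had all AS samples above the WT samples. Parp12 had them all below, by a small margin (highest AS sample 21.03 CPM, lowest WT sample 21.09 CPM). Ifi44 was at 3.22, 2.26 and 3.68 CPM in the WT samples and 1.93, 1.01 and 1.67 CPM in the AS samples (log2 fold change -0.99, standard error 0.28, adjusted p = 0.0181), and lost the threshold without WT replicate 3 (adjusted p = 0.0678) and without AS replicate 2 (adjusted p = 0.0520) in edgeR. Ifi44l, the tested gene beside it on chromosome 3, singled out after its values were seen, was at 1.76, 0.876 and 1.04 CPM in the WT samples and 0.111, 0.0389 and 0 CPM in the AS samples (log2 fold change -4.64, adjusted p = 0.000598). Of the 5 tested genes on each side of Ifi44, Ifi44l included, 2 were higher, 6 lower and 2 not called. Their median log2 fold change was -0.51. Over all genes tested, 20.4% were higher and 19.6% lower.

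Samhd1, a dNTP hydrolase that limits reverse transcription, was among the most abundant members at 269.9, 243 and 270.0 CPM in the WT samples and 212, 217 and 231 CPM in the AS samples and was lower in AS podocytes (log2 fold change -0.25, standard error 0.06, adjusted p = 0.0134); without WT replicate 3 the adjusted p was 0.0521 (edgeR). Trim25, the ubiquitin ligase that acts on RIG-I, was at 48.8, 39.4 and 44.2 CPM in the WT samples and 54.5, 54.7 and 53.1 CPM in the AS samples (log2 fold change 0.29, standard error 0.08, adjusted p = 0.0148), with an adjusted p of 0.0513 without AS replicate 1 and 0.0531 without AS replicate 2 (edgeR). Trim25 thus rose where Ddx58 fell. Xaf1, an antagonist of the apoptosis inhibitor XIAP, was at 19.1, 14.3 and 17.8 CPM in the WT samples and 23.0, 20.5 and 21.7 CPM in the AS samples (log2 fold change 0.35, adjusted p = 0.0294), and Sp100, a nuclear body protein, at 5.72, 6.90 and 6.89 CPM in the WT samples and 8.17, 7.92 and 8.65 CPM in the AS samples (log2 fold change 0.34, adjusted p = 0.0490). Both calls depended on single samples: Xaf1 lost the threshold without WT replicate 2 (adjusted p = 0.0814), WT replicate 3 (0.0513), AS replicate 1 (0.103) or AS replicate 3 (0.0796), and Sp100 in all 6 such fits, with an adjusted p from 0.0649 to 0.142 (edgeR). Trim21, the cytosolic antibody receptor, was at 6.61, 6.86 and 8.13 CPM in the WT samples and 8.88, 8.70 and 9.54 CPM in the AS samples, without overlap and short of the threshold (log2 fold change 0.33, adjusted p = 0.0537), which it passed, besides the replicate block given with the other settings, without WT replicate 3 (adjusted p = 0.0295, edgeR), with library sizes alone as scaling (adjusted p = 0.0461, edgeR), with limma-voom (adjusted p = 0.0449) and with DESeq2 (adjusted p = 0.0445). Rtp4, a chaperone of membrane receptors, was at 2.86, 2.18 and 2.17 CPM in the WT samples and 3.69, 3.35 and 2.82 CPM in the AS samples (log2 fold change 0.45, adjusted p = 0.0919) and passed without WT replicate 1 (adjusted p = 0.0398, edgeR). Its lowest AS sample lay just under its highest WT sample.

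Several of the best known induced genes did not pass the threshold, and their lines overlapped. Isg15, the ubiquitin-like modifier, was at 2.76, 1.94 and 2.45 CPM in the WT samples and 2.18, 1.89 and 1.36 CPM in the AS samples (log2 fold change -0.40, standard error 0.24, adjusted p = 0.204). Ifitm3, a membrane protein that blocks viral entry, was the most abundant member per length and was at 74.7, 80.3 and 77.5 CPM in the WT samples and 76.2, 75.5 and 82.6 CPM in the AS samples (log2 fold change 0.01, standard error 0.06, adjusted p = 0.888). Ifitm2 was at 16.3, 14.0 and 14.2 CPM in the WT samples and 13.9, 14.4 and 17.7 CPM in the AS samples (log2 fold change 0.05, adjusted p = 0.782), although 42.0% of its stretches of 75 bases occur in other genes. Ifi35, a partner of the Nmi protein, was at 25.0 ± 2.09 CPM in WT podocytes and 23.8 ± 0.564 CPM in AS podocytes (log2 fold change -0.07, adjusted p = 0.486). Mx2, of the antiviral Mx family and annotated in M21 as a polymorphic pseudogene, was at 0.381 ± 0.0632 CPM in WT podocytes and 0.364 ± 0.186 CPM in AS podocytes (log2 fold change -0.06, adjusted p = 0.931).

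The remaining 5 members fell below the low-count filter and were not compared. Mx1, the GTPase against influenza virus, whose gene is defective in many laboratory strains, had 2, 1 and 0 counts in the WT samples and 0, 0 and 0 counts in the AS samples. Oasl1 held 0, 2 and 0 counts in the WT samples and 0, 0 and 0 counts in the AS samples. With no count in any sample of a line, the level could still reach 0.0209 CPM in the WT line or 0.0198 CPM in the AS line (the level of 3 counts in the pooled line, counting error only). The other three were at 1, 8 and 6 counts in the WT samples and 7, 0 and 4 counts in the AS samples for Oas2, 9, 5 and 2 counts in the WT samples and 2, 7 and 9 counts in the AS samples for Zbp1 and 7, 4 and 2 counts in the WT samples and 8, 14 and 8 counts in the AS samples for Ifitm1. Such counts are too few to compare the lines.

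Levels of different members can be compared once they are divided by exon length. In WT podocytes the mean CPM per kilobase of M21 exons was 114 for Ifitm3, 50.5 for Ifngr2, 48.8 for Irgm1, 28.5 for Samhd1 and 27.8 for Jak1. Receptor chains for interferon gamma (Ifngr2 and 26.7 for Ifngr1) stood beside 26.6 for Ifnar1 and only 2.80 for Ifnar2. In AS podocytes Irgm1 was at 65.1 and Ifit3 at 36.3 CPM per kilobase, while Gbp2 was at 12.5 as against 24.7 in WT. At the other end, Isg15 was at 3.15 and 2.39, Usp18 at 0.479 and 0.424, and Oas3 at 0.0572 and 0.0293 CPM per kilobase in WT and AS podocytes.

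**Figure D5:**
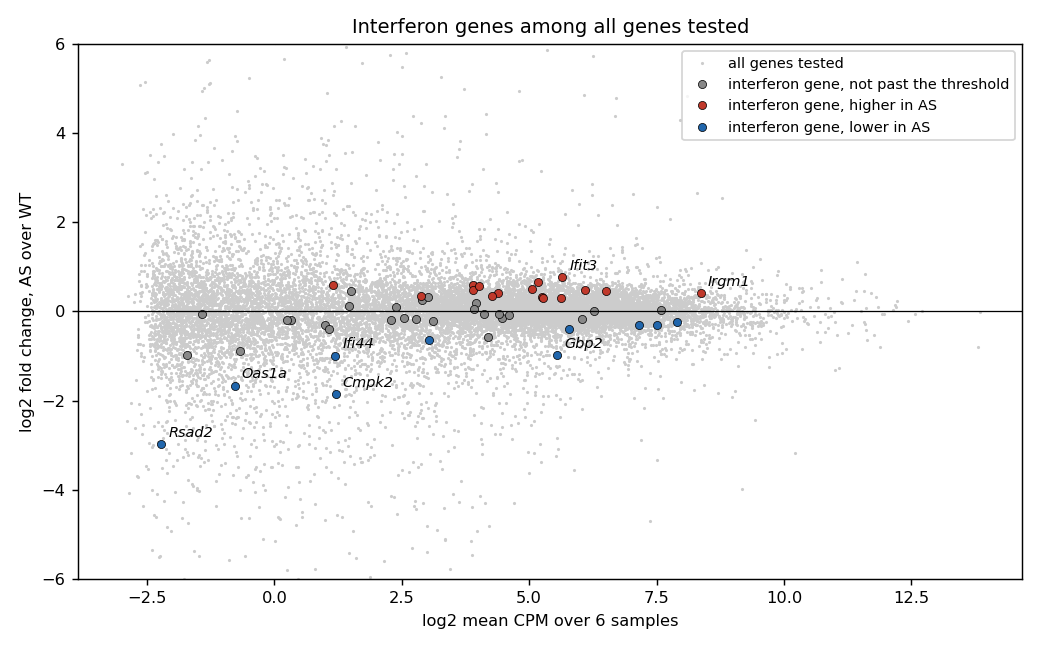
Log2 mean CPM over the 6 samples (horizontal axis) against log2 fold change, AS over WT (vertical axis), for all 16263 genes tested (light grey) and the 52 interferon genes (dark grey, red for higher and blue for lower in AS). The vertical axis ends at 6 in either direction, which leaves out 71 genes, none of them a member. Interferon genes lie inside the cloud of all genes, and those with the largest decreases, Rsad2, Oas1a, Cmpk2 and Ifi44, have low levels.

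Other genes of the pathway, from a list of 121 made together with the members' roles, were divided in the same way. Of the 81 that were tested, 15 were higher and 14 lower in AS podocytes (35.8% called, against 40.1% of all genes), with a median log2 fold change of 0.00167. The interferons themselves were not seen: of 21 ligand genes, among them Ifnb1 and Ifng, 20 had no count in any library and Ifnz had 1 count in a WT sample. Among 17 other receptor and signal genes tested, 1 was higher (Tyk2, the kinase of Ifnar1, log2 fold change 0.28, adjusted p = 0.0491) and 4 were lower (Ifnlr1, Ptpn2, Stat3 and Herc6). The 15 sensing genes gave 4 higher and 4 lower, and the 49 induced genes 10 higher and 6 lower.

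Among called genes of that list with a mean of at least 1 CPM, Trim5, Trafd1 and Sp140 had the largest increases. Trim5 stood at 0.0288 ± 0.0331 CPM in WT podocytes and 1.99 ± 0.274 CPM in AS podocytes (log2 fold change 6.03, adjusted p = 2.47e-05), with 4 counts in all over the WT samples, and its reads may be split with the similar TRIM genes beside it on chromosome 7. Trafd1, an inhibitor of innate signalling, stood at 63.4 ± 0.515 CPM in WT podocytes and 105 ± 1.09 CPM in AS podocytes (log2 fold change 0.73, adjusted p = 4.57e-06). Sp140, a relative of Sp100, stood at 11.6 ± 0.232 CPM in WT podocytes and 18.1 ± 2.04 CPM in AS podocytes (log2 fold change 0.65, adjusted p = 0.000840). The largest decreases were those of Ifnlr1, Ifitm10 and Slfn9. Ifnlr1, the receptor of type III interferon, had 3.25 ± 0.605 CPM in WT podocytes and 1.01 ± 0.438 CPM in AS podocytes (log2 fold change -1.68, adjusted p = 0.00185). Ifitm10 had 10.1 ± 1.76 CPM in WT podocytes and 4.05 ± 0.594 CPM in AS podocytes (log2 fold change -1.32, adjusted p = 0.000249), and Slfn9 had 3.97 ± 0.631 CPM in WT podocytes and 2.47 ± 0.238 CPM in AS podocytes (log2 fold change -0.68, adjusted p = 0.0136). Sensing genes moved in both directions. Cgas, the DNA sensor, singled out after its values were seen, was at 0.355, 0.320 and 0.0650 CPM in the WT samples and 1.58, 1.65 and 1.91 CPM in the AS samples (log2 fold change 2.77, adjusted p = 0.000941). Mavs, the adaptor of RIG-I, was lower (log2 fold change -0.47, adjusted p = 0.000242), and the kinase gene Tbk1 on chromosome 10 was higher (log2 fold change 0.46, adjusted p = 0.000717).

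Antigen presentation genes, which interferon gamma also induces, were set beside the members. Of 13 genes of MHC class I presentation, 4 were higher and 1 lower in AS podocytes (38.5% called, against 40.1% of all genes), with a median log2 fold change of 0.19. The higher genes were the peptide transporter Tap1 (log2 fold change 0.47, adjusted p = 0.00171), its partner Tapbp, the immunoproteasome subunit Psmb10 and the proteasome activator Psme1, and the lower gene was the peptidase Erap1 (log2 fold change -0.23, adjusted p = 0.0215). H2-K1, whose promoter in its b form also drives the transgene of these lines, was at 391, 177 and 209 CPM in the WT samples and 247, 174 and 254 CPM in the AS samples (log2 fold change -0.20, adjusted p = 0.580), with overlap and the highest value in WT replicate 1. Its reads may be split with other class I genes. Summed over the 13 genes the level was 2015, 1251 and 1360.1 CPM in the WT and 1693, 1417 and 1719 CPM in the AS samples.

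Of the 26 calls among the members, 18 stood in every other fit with a test that was run (13 in number), 12 higher and 6 lower in AS podocytes. The higher genes were Ifngr1, Jak2, Stat2, Irf1, Irf2, Irf3, Ifit2, Ifit3, Ifit3b, Irgm1, Parp14 and Bst2. The lower genes were Ifnar1, Jak1, Ddx58, Gbp2, Gbp3 and Cmpk2. Of the former, Irf2 lay 0.00396 above the median of its own chromosome, and the others at least 0.143.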

How the data were processed

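The authors deposited raw counts, as whole numbers of reads on each gene of each library. The submitters' processing notes name FastQC, Trim Galore, STAR and edgeR and the build mm39, with no role or version. Which counter, strand setting and annotation release produced the counts was not stated. The mRNA libraries had passed 15 PCR cycles. Identifiers were matched without their version to GENCODE M21 (GRCm38), which named 51880 of 57132. Because the builds differ, that annotation gave names, chromosomes, gene order, exon lengths, overlaps and transcript letters but no coordinates, and the coordinates printed are those of the RefSeq promoter table (GRCm38.p6).

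Comparisons were run in R 4.3.3 (edgeR 4.0.16, DESeq2 1.42.0, limma 3.58.1). Genes passing filterByExpr (minimum count 10, minimum total count 15) were TMM scaled and compared with the edgeR quasi-likelihood test, genotype being the sole term. Standard errors are the log2 fold change over the square root of F. The scripts were tested on simulated data. Pairs of samples within a line differed by more than sampling noise (chi-square per degree of freedom 9.06 to 45.2). WT replicate 1 differed most, at 43.0 from WT replicate 2 and 45.2 from WT replicate 3. WT replicates 2 and 3 were at 9.06, and the AS pairs at 17.1 to 20.6. Groups of 3 cannot reach p < 0.05 in an exact permutation test, so none was used. PCR copies were not told apart by molecular identifiers, so limits of detection hold for counting error alone.

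Members, lists and roles were chosen with earlier results of these data known. All members are accounted for. Values in every sample are given for receptors, kinases, transcription factors and called members with a fold change over 2, and as counts for those under the filter. Other members were to be given by mean or range, and values in every sample were added for most of them. From the list of other interferon genes, the 3 largest increases and the 3 largest decreases among called genes with a mean of at least 1 CPM are named. Results for some genes are not reported here. Stat3, Tyk2, Ptpn2, Herc6, Mavs, Tbk1, Cgas, Ifi44l, Ifit1bl1, Ifit1bl2, Gbp2b, Oas1b, Oas1c, Oas1e and single genes of the MHC class I list were named after their values were seen. Stretches of 75 bases shared between M21 transcripts were counted on both strands. Motifs were searched on both strands in the 250 bases before the start, and 42 of the 52 windows of members run into an M21 transcript of the same gene. Protein sequences were not used here. Alternatives were other scalings, DESeq2, limma-voom, other filters, a replicate block, each sample left out, and the chromosome median removed.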

Additional observations from a re-analysis of the deposited data

How the results depend on the processing

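Of 723 values of single members under other settings, 649 kept direction and side of the threshold, 29 lost it (in 8 members), 13 gained it (in 5), 12 moved by over 1 standard error with the chromosome median removed, and 20 changed sign. No reversed member was past the threshold in the main comparison. With 1 sample left out, Ifngr2 ran from -0.0318 to 0.0970 (0.04 with all samples, reversed without WT1), Socs1 ran from -0.551 to 0.469 (-0.14 with all samples, reversed without WT1, AS2 or AS3), Ifitm3 ran from -0.0277 to 0.0368 (0.01 with all samples, reversed without WT1 or AS3), Mx2 ran from -0.537 to 0.235 (-0.06 with all samples, reversed without WT1 or AS2), Igtp ran from -0.0773 to 0.204 (0.10 with all samples, reversed without WT2), Irf7 ran from -0.0490 to 0.301 (0.13 with all samples, reversed without WT3 or AS1), Dhx58 ran from -0.442 to 0.171 (-0.19 with all samples, reversed without WT3), Parp9 ran from -0.177 to 0.0247 (-0.06 with all samples, reversed without AS2), Usp18 ran from -0.602 to 0.0346 (-0.19 with all samples, reversed without AS3) and Ifitm2 ran from -0.0702 to 0.121 (0.05 with all samples, reversed without AS3). With the chromosome median removed, Usp18 was at 0.0124, Mx2 was at 0.00152, Parp9 was at 0.00105, Parp12 was at 0.0442 and Dtx3l was at 0.00680. The number of members higher in AS was 16 and ran from 12 to 16 with 1 sample left out, that of members lower was 10 and ran from 7 to 11, and that with a fold change over 2 was 3 and ran from 2 to 4; the last was 1 with a mean of at least 1 CPM, where Oas1a and Rsad2 are not tested. Other interferon genes lower in AS numbered 14, and 9 to 14 with 1 sample left out, fewest without AS replicate 2; those higher ran from 11 to 16. All other counts stayed within 1.5 times. Whether the replicate numbers mark pairs was not settled. Deviations of same-numbered samples correlated at 0.147, 0.0939 and 0.0526, and those of differently numbered samples at -0.130 to 0.0571. Only WT replicate 3 correlated best with another number, AS replicate 2 (0.0571). The main comparison did not use the numbers. With the replicate block 17 members were higher and 12 lower, with Socs3 (adjusted p = 0.00221), Eif2ak2 (adjusted p = 0.0332) and Trim21 (adjusted p = 0.0375) gained in edgeR, and 3636 and 3430 of all genes were higher and lower. Depth limits Mx1, Oasl1, Oas2, Zbp1 and Ifitm1.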
